A study of Mus musculus with 6 samples.

Results

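Heat shock proteins and DnaJ proteins are the molecular chaperones that fold newly made proteins, hold damaged ones in solution and take protein complexes apart. Their genes were examined here in the cerebral cortex of mice labelled as knockouts of the transcription factor Cux2 and of control mice. The genes were chosen by name alone: every probe whose gene name on the array began with Hsp followed by a digit or one of the letters a to e or h, or began with Dnaj. This gave 63 of 27670 named genes and 125 of 41174 probes, made up of 25 Hsp genes, 37 Dnaj genes and 1 gene, printed as Hspc171, that is now called Tmem208 and is no heat shock protein. Tmem208 stayed in the counts below, where the whole set is called chaperone genes. A further 10 genes carry an Hsp or Dnaj symbol today but had another name on the array, and these stayed out of the counts.

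The cortices came from male mice, and 1 one-colour Agilent array was run per sample. The 3 controls (samples 15, 62 and 16) have wild type in their titles but Cux2+/- as their genotype label, and the word control leaves that conflict as it is. The 3 other samples (53, 48 and 54) are labelled Cux2-/-, and "knockout" below means so labelled. The labels give no strain or age, do not describe the deleted part of Cux2 and do not say whether the samples are separate animals. All p-values therefore reflect sample-to-sample spread, which may be technical. Between 58.5% and 72.7% of probes were well above background on an array, and the number of arrays limits the precision.

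The brighter of 2 Cux2 probes read -0.03, 0.27 and 0.03 on the controls (15, 62, 16) against -0.04, -0.05 and -0.01 on the knockouts (53, 48, 54). The scale of these and all later levels is log2 signal minus the 75th percentile of the array, and values are given in this order of samples. These groups overlap, and since it is not known whether the probes lie in the deleted part, they check nothing about the labels. All 9 markers of cortical neurons on the list used were well above background on all 6 arrays. On this scale the group means of all 8 microglial markers were lower in the knockouts (median difference -0.38, mean level 1.503 to 1.78 on control arrays and 1.14 to 1.29 on knockout arrays). Their differences ran from -0.77 (C1qb) to -0.01 (Cx3cr1), and the groups overlapped for Cx3cr1 and for P2ry12 (-0.13). The group means of all 7 striatal markers were lower too (median -0.49), but their mean level was 1.89 and 1.87 on controls 15 and 62 and 1.10 on control 16, which lay among the knockouts (1.01, 1.21 and 1.11). The part of any of these lists in the chaperone values was not tested. In such bulk tissue, fewer cells of a type and less RNA per cell cannot be told apart.

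Hsp70 proteins bind short hydrophobic stretches of an unfolded protein and release them in a cycle driven by ATP. DnaJ proteins, also called Hsp40, bring the client to Hsp70 and start ATP hydrolysis, and Hsp110 proteins reset the cycle by exchanging the nucleotide. Hsp90 matures kinases and steroid receptors, the chaperonin of mitochondria encloses its clients in a chamber, and small Hsps hold unfolded proteins without ATP. Some of these genes are always on. Others are switched on by heat shock factor 1 (Hsf1), which binds inverted repeats of the bases GAA, the heat shock element, and those of the endoplasmic reticulum by the unfolded protein response through the ER stress element. In neurons Hspa8 and Dnajc6 also strip clathrin from endocytic vesicles, and Dnajc5 guards synaptic vesicle proteins.

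Promoter sequences, where at hand, show which of the members carry these elements. RefSeq windows of 300 bases (250 before and 50 after a start site, assembly GRCm38.p6) were at hand for 51 of the 63 genes. Those without a window, among them Hspa8, Hsp90ab1 and Hsp90aa1, were not searched. Heat shock elements were searched on both strands as 2 units, GAANNTTC or TTCNNGAA, and as 3 units, in which NNGAA follows the first of these or NNTTC the second, so that each 3-unit match contains 2-unit matches. The 3-unit form was found in 4 of the 51 chaperone genes (7.84%) and in 0.662% of 27025 genes with a window, and the 2-unit form in 14 of 51 (27.5%) and 17.0%. The heat-inducible gene Dnajb1 had a window but neither form within it. A match describes the letters and is neither a bound site nor a cause.

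Hspd1 and Hspe1, the 2 parts of the mitochondrial chaperonin, lie head to head and share 1 element, shown on each gene's own strand. Dnajb6 carries a 3-unit element, and the 3-unit element of Hsph1 lies past its start site, so its 2-unit match upstream is shown. Hspa1a and Hspb1 are further stress-induced members with 2-unit matches, and of the 2 in Hspb1 the one farther from the start is shown. The capitals mark the bases of the match.
Hspd1, chr1:55088047-55088088, minus strand: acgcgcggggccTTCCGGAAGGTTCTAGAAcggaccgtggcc
Hspe1, chr1:55088047-55088088, plus strand: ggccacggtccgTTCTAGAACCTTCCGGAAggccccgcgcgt
Dnajb6, chr5:29735840-29735876, plus strand: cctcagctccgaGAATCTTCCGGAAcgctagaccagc
Hsph1, chr5:149636350-149636381, minus strand: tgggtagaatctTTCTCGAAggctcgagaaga
Hspb1, chr5:135887790-135887821, plus strand: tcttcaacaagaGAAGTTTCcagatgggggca
Hspa1a, chr17:34972241-34972272, minus strand: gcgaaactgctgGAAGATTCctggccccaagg
Hspa1b, chr17:34959323-34959354, minus strand: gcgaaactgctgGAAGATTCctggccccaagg

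The stretches of Hspa1a and Hspa1b are the same, and 247 of the 250 bases before their start sites are identical (98.8%). The copies are neighbours on chromosome 17 (Hspa1b at 34956429 to 34959238, Hspa1a at 34969359 to 34972156). No probe bears the name Hspa1b, so that gene is not analysed on its own here. The Hspa1a probes may measure both copies.

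The ER stress element, CCAAT and CCACG with 9 bases between them, on either strand, was found in 3 of the 51 chaperone genes (5.88%) and in 0.137% of all genes with a window. The 3 are Hspa5 (BiP) and Hsp90b1 (GRP94), the main Hsp70 and Hsp90 of the endoplasmic reticulum, and Dnajc3 (p58IPK), a co-chaperone of Hspa5. Hsp90b1 has 2 matches, of which the one closer to its start reads on the opposite strand.
Hspa5, chr2:34772013-34772055, plus strand: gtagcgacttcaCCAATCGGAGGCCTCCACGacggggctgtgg
Hsp90b1, chr10:86705521-86705563, minus strand: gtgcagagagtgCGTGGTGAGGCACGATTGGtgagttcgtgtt
Hsp90b1, chr10:86705626-86705668, minus strand: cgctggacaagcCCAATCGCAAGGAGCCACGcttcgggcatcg
Dnajc3, chr14:118937815-118937857, plus strand: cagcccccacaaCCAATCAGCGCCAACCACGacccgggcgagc

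Chaperone genes were often among the bright ones on the control arrays. The brightest probe of each gene stood for it, and 26 of the 56 genes tested (46.4%) lay above the 90th percentile of probe brightness in the controls, against 20.8% of 17122 genes. Hsp90aa1 (percentile 99.9), Hspa8 (99.7), Hsp90ab1 (99.6), Hsph1 (99.1) and Hsp90b1 (98.6) led this order. Brightness depends on the probe as well as on the RNA, so the order describes the array and is no ranking of transcripts. At the other end, 7 genes were not tested: Dnajb7, Dnajb8, Dnajc5g and Hspb7 had no probe well above background on any array, and Dnajb13, Dnajc5b and Hspa1l were above it on 1, 1 and 3 arrays. Every one of the 56 tested genes was well above background on all 6 arrays, so no gene was tested because it was bright in only 1 group.

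**Figure D1:**
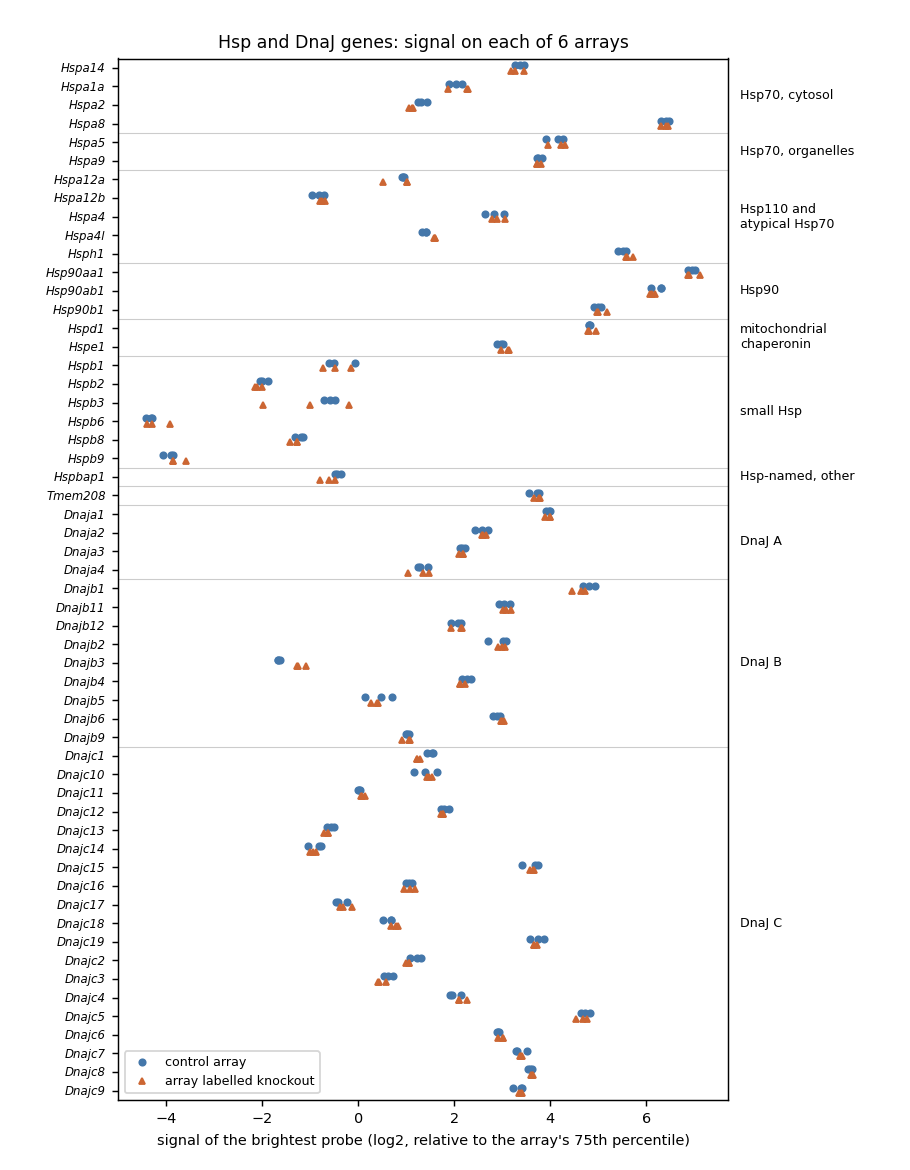
Signal of the brightest probe of each of the 56 tested genes (horizontal axis, log2 relative to the array's 75th percentile), with control arrays as circles and arrays labelled knockout as triangles. Points should be compared within a row only: the 3 control and 3 knockout points of most genes lie close together, and Hspb3 (-1.99 to -0.19 among knockouts) is the most scattered.

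No chaperone gene differed between knockout and control cortex at an adjusted p under 0.05 (0 of 56 genes in limma with Benjamini-Hochberg adjustment over all probes, 0.128% of 17122 genes in the background). The differences were small as well as uncalled: for 54 of 56 genes (96.4%) the 95% interval lay within 1.5-fold in either direction, against 79.4% of all genes. The exceptions among the chaperone genes were Hspb3 and Dnajb3. Not all of the 17122 genes were above background on all 6 arrays, as the 56 were, and the shares were not matched for brightness. The median difference was 0.02 on the log2 scale, with 30 genes above 0 and 26 below, and over all genes above background on 6 arrays the median was -0.0035, with 7832 above and 8190 below. The chaperone median has no stable sign: it was -0.017 with arrays centred on their median and -0.015 after normexp background correction, and with the slide as a block it was 0.0092, again with 0 genes passing. The median spread within groups (SD) was 0.0957 for the chaperone genes and 0.126 for all genes.

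Without adjustment, 2 genes had a p under 0.05 and were higher in the knockouts, Dnajb3 and Hspa4l (3.57% of 56, against 3.89% of all genes). Another 2 were lower, Dnajc1 and Hspa2 (3.57%, against 4.38%). The groups did not overlap for 5 genes that were higher, those 2 with Dnajb6, Dnajc11 and Hsph1 (8.93%, against 6.38%), and for 3 that were lower, Dnajc1, Dnajc2 and Hspa2 (5.36%, against 7.21%). These shares are near the background. With the slide as a block the differences were 0.43 for Dnajb3, 0.20 for Hspa4l, -0.26 for Dnajc1 and -0.22 for Hspa2. Among single probes, 7 of 108 had an unadjusted p under 0.05 (6.48%, against 7.96% of all probes), and their lowest adjusted p was 0.201.

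**Figure D2:**
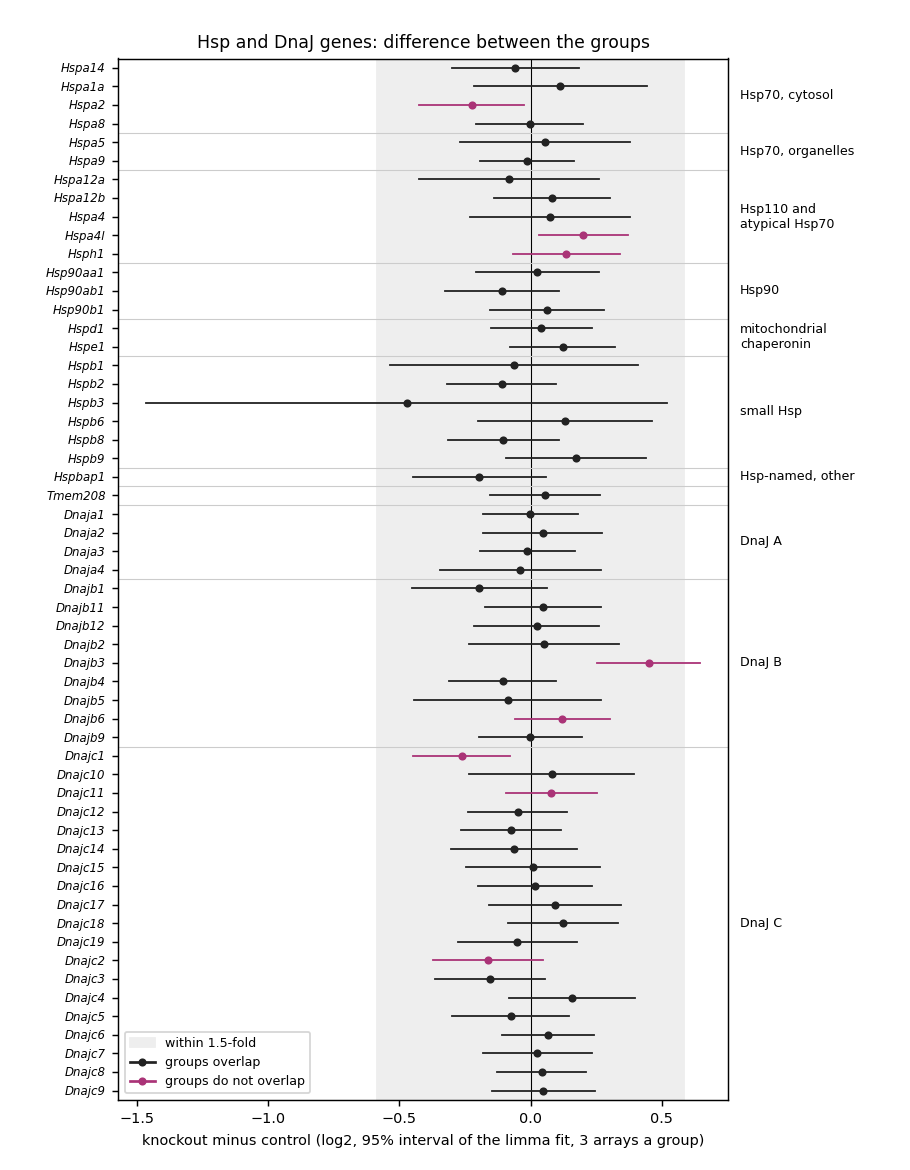
Difference between knockout and control for the 56 tested genes (horizontal axis, log2, with the 95% interval of the limma fit), ordered by family, with the grey band marking 1.5-fold and colour marking genes whose groups do not overlap. All but Hspb3 and Dnajb3 have intervals inside the band, and most intervals include 0.

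Among the cytosolic Hsp70 genes, Hspa8, the constant Hsc70 that serves folding and clathrin uncoating, read 6.40, 6.48 and 6.30 on the controls and 6.41, 6.44 and 6.31 on the knockouts. The ranges coincide, and the difference was -0.0033 (95% interval -0.21 to 0.20, adjusted p = 0.996 in limma). Its dimmer probe differed by 0.17, also without passing (adjusted p = 0.710 in limma). Hspa14, a ribosome-bound Hsp70, differed by -0.06.

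Hspa2, an Hsp70 best known from the testis, was the cytosolic Hsp70 with the most separated groups. Its brightest probe read 1.31, 1.43 and 1.24 on the controls and 1.11, 1.05 and 1.15 on the knockouts. Every knockout array lay below every control array, with a difference of -0.23 (SE 0.083, adjusted p = 0.576 in limma). The second probe gave -0.22, and all 3 knockout values (0.16, 0.05 and 0.05) lay below the lowest control (0.19). Leaving out single arrays gave -0.27 to -0.18.

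Hspa1a is the classic stress-induced Hsp70, kept low in most unstressed cells. Its brightest probe read 2.16, 1.90 and 2.03 on the controls and 2.30, 1.88 and 2.26 on the knockouts, a difference of 0.11 (95% interval -0.22 to 0.44, adjusted p = 0.904 in limma). Arrays 53 and 54 were higher than every control and array 48 was lower than every control, so the groups overlap. All 4 probes differed in the same direction (0.04 to 0.22), and on 3 of them array 48 was the lowest of the 6.

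The main Hsp70 of the endoplasmic reticulum, Hspa5, read 4.15, 4.25 and 3.91 on the controls and 4.23, 3.94 and 4.31 on the knockouts, with a difference of 0.05. Within each group 1 array stood low, control 16 and knockout 48. Hspa9, mortalin, which pulls proteins into mitochondria, differed by -0.01 and had one of the narrowest ranges over the 6 arrays (3.72 to 3.82).

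The Hsp110 class exchanges nucleotide on Hsp70. Hspa4l, its member known from testis and brain, read 1.41, 1.42 and 1.34 on the controls and 1.59, 1.60 and 1.57 on the knockouts. All knockout arrays lay above all controls, a difference of 0.20 (95% interval 0.03 to 0.37), with an unadjusted p of 0.027 and an adjusted p of 0.561 in limma. The next brightest probes gave 0.22 and 0.34 with no overlap, while the dimmest, named for a cDNA clone, gave -0.13. Leaving out single arrays moved the brightest probe between 0.17 and 0.22 (unadjusted p 0.038 to 0.087 in limma).

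Hsph1, the inducible Hsp110 with the element shown above, read 5.57, 5.42 and 5.50 on the controls and 5.57, 5.73 and 5.60 on the knockouts, a difference of 0.14 (adjusted p = 0.778 in limma). The lowest knockout value and the highest control value were equal to the second decimal, so the separation is slight. Hspa4 differed by 0.07, and the atypical Hsp70 gene of vessels, Hspa12b, by 0.08.

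The probes of Hspa12a, an atypical Hsp70, did not move together. The brightest, named for a clone, read 0.93, 0.91 and 0.94 on the controls and 1.01, 0.52 and 1.01 on the knockouts, so that array 48 stood low. The 2 dimmer RefSeq-named probes were highest on that same array, at 0.19 and -2.12 against controls of -1.05 to -0.49 and -3.39 to -2.80. The 4 differences between the groups ran from -0.08 to 0.42, with unadjusted p from 0.183 upward in limma.

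Hsp90 is among the most abundant proteins of the cell. Hsp90ab1, its constant form, read 6.09, 6.30 and 6.30 on the controls and 6.07, 6.12 and 6.18 on the knockouts. Control 15 lay among the knockouts, and the difference was -0.11 (95% interval -0.33 to 0.11, adjusted p = 0.840 in limma), while the second probe gave 0.07. Hsp90aa1, the inducible form, differed by 0.03 (7.004, 6.95 and 6.86 against 6.87, 7.12 and 6.89), with array 48 the highest of all. Hsp90b1 differed by 0.06.

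The 2 chaperonin genes with the shared element were both nominally higher, Hspd1 by 0.04 and Hspe1 by 0.12 (adjusted p = 0.947 and 0.803 in limma). Hspe1 read 3.01, 2.97 and 2.89 on the controls and 2.97, 3.11 and 3.14 on the knockouts. Of the knockouts only array 53 lay within the controls' range.

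The small Hsps varied most. Of 7 genes 6 were tested, 2 differences were above 0 and 4 below, with a median of -0.08 and a median SD within groups of 0.163. Hspb3, a small Hsp of muscle and motor neurons, read -0.58, -0.71 and -0.48 on the controls, but -1.99, -0.19 and -1.01 on knockout arrays 53, 48 and 54. Of those knockout arrays 2 lay below every control and 1 above, a range of 1.80 that only 1.41% of 16022 genes exceeded. The difference was -0.47 (95% interval -1.47 to 0.52, adjusted p = 0.850 in limma). It was -0.02 within slide 1 and -1.39 within slide 2, and leaving out knockout 53 brought it to -0.0085 while leaving out knockout 48 brought it to -0.91, so single arrays decide this value.

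Hspb1 (Hsp25), which protects actin filaments and is induced by stress, read -0.07, -0.61 and -0.49 on the controls and -0.48, -0.74 and -0.15 on the knockouts. Array 15 of the controls and array 54 of the knockouts stood high, and the difference was -0.06 (95% interval -0.54 to 0.41). Hspb8, the partner of Bag3 in selective autophagy, differed by -0.10, Hspb2 by -0.11, Hspb6 by 0.13 and the testis gene Hspb9 by 0.17. Hspbap1, which binds a small Hsp, differed by -0.20 with overlapping groups.

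**Figure D3:**
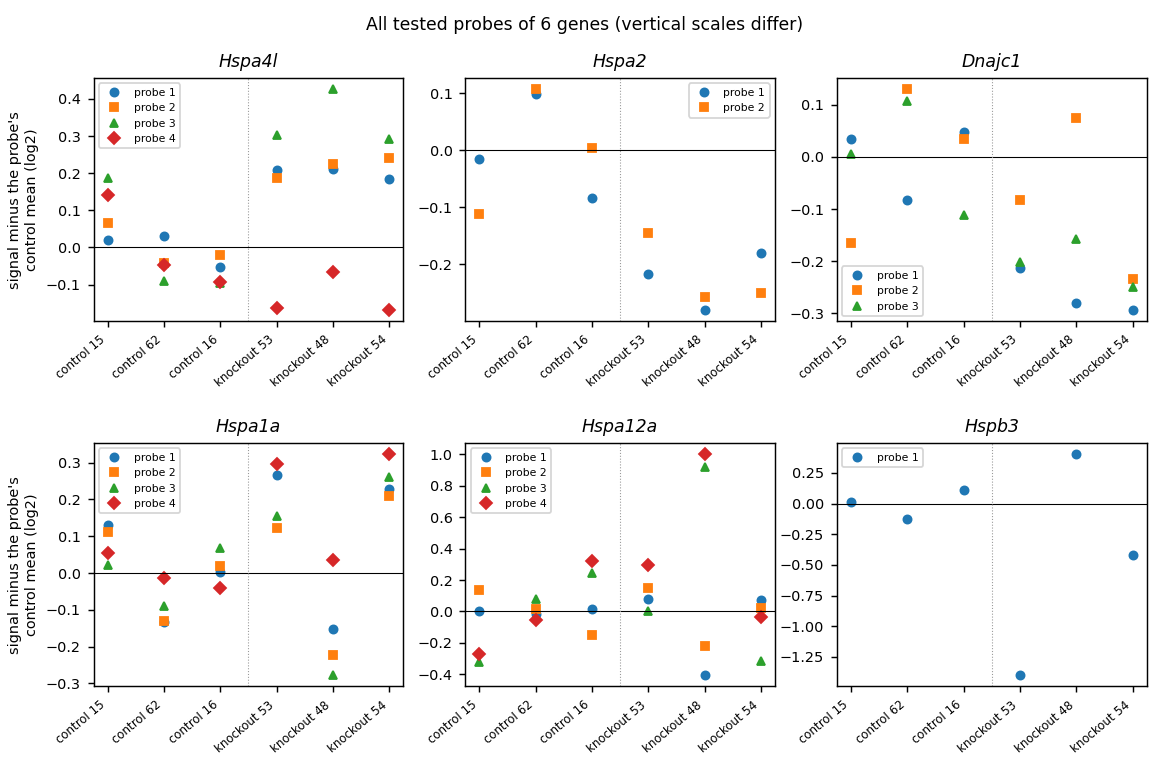
All tested probes of Hspa4l, Hspa2, Dnajc1, Hspa1a, Hspa12a and Hspb3 on the 6 arrays (vertical axis, log2 signal minus that probe's control mean, with scales that differ between panels). Probe 1 is the brightest: 3 of 4 Hspa4l probes and both Hspa2 probes separate the groups, the Hspa12a probes part on knockout 48, and the single Hspb3 probe scatters over the knockouts.

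The DnaJ genes fall into 3 classes by their domains. In class A, whose cytosolic members carry clients to Hspa8, all 4 genes were tested and their differences ran from -0.04 (Dnaja4) to 0.05 (Dnaja2). Dnaja1 read 3.99, 3.91 and 3.97 on the controls and 3.88, 3.998 and 3.98 on the knockouts, a difference of -0.0018. Dnaja3, the mitochondrial member, differed by -0.01.

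In class B, 9 of 12 genes were tested. Dnajb3, known as a testis DnaJ, had the lowest p of all members. Its only probe read -1.63, -1.66 and -1.66 on the controls and -1.25, -1.27 and -1.08 on the knockouts. The lowest knockout lay well above the highest control, and the difference was 0.45, a 1.37-fold higher signal (95% interval 0.25 to 0.65). The unadjusted p was 0.0011 and the adjusted p 0.201 in limma, so it did not pass over the whole array. It was 0.45 within slide 1 and 0.41 within slide 2, and between 0.39 and 0.48 with single arrays left out. Its lowest adjusted p under any alternative was 0.138.

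Dnajb1, the heat-inducible partner of Hspa1a, went the other way. It read 4.92, 4.81 and 4.67 on the controls and 4.64, 4.72 and 4.46 on the knockouts, a difference of -0.20 (95% interval -0.45 to 0.06, adjusted p = 0.728 in limma). Its second probe gave -0.19, and the groups overlapped in the brighter probe and met at 0.74 in the dimmer one. Dnajb6, which suppresses aggregation of polyglutamine proteins and carries the 3-unit element, read 2.94, 2.90 and 2.81 on the controls and 3.00, 2.98 and 3.04 on the knockouts, higher without overlap by 0.12 (adjusted p = 0.778 in limma). Dnajb2, a neuronal DnaJ, differed by 0.05.

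Dnajb4 had the widest disagreement between probes. Its brightest probe differed by -0.11 and its second by -0.01, while a dim probe named for a clone differed by 1.26 (unadjusted p = 0.052 in limma), with controls at -3.90, -5.48 and -5.46 and knockouts at -2.87, -4.34 and -3.85. Across the 31 member genes with several tested probes, all probes had 1 sign in 17 (54.8%), against 55.4% of 5975 such genes on the array.

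Class C holds DnaJ proteins with diverse added domains, and 19 of its 21 genes were tested. Dnajc1, which sits in the endoplasmic reticulum membrane, read 1.54, 1.43 and 1.56 on the controls and 1.30, 1.23 and 1.22 on the knockouts. All knockouts lay below all controls, by -0.26 (95% interval -0.45 to -0.08), with an unadjusted p of 0.013 and an adjusted p of 0.469 in limma. The other 2 tested probes gave -0.08 and -0.20, and the first of these overlapped between groups. Dnajc2, a ribosome-associated DnaJ, gave -0.16 without overlap, a sign that turned under 1 of 6 other scalings. Leaving out single arrays gave -0.23 to -0.11, and the difference was -0.013 within slide 1 and -0.27 within slide 2.

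The remaining class C genes with the lowest p were Dnajc3 (-0.15, the same sign in all 4 probes) and Dnajc4 (0.16), both with overlapping groups. Those of the mitochondrial import machinery and cristae, Dnajc19 and Dnajc11, differed by -0.05 and 0.08. The synaptic and endocytic members differed by -0.08 (Dnajc5), 0.06 (Dnajc6, auxilin) and -0.08 (Dnajc13), and Dnajc7 by 0.02.

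By compartment, the 7 members of the endoplasmic reticulum had a median difference of 0.05, the 7 of mitochondria 0.0086 and the 5 of the synaptic vesicle cycle -0.0033, with 0 adjusted calls in each. The 3 genes with the ER stress element shown above did not share a direction: Hspa5 and Hsp90b1 were at 0.05 and 0.06, and Dnajc3 at -0.15. Dnajc10, another member of that compartment, differed by 0.08 with 3 probes of 1 sign and 1 of the other.

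The stress-inducible members were set beside the constant ones. Among 5 inducible genes (Hspa1a, Hspb1, Hsph1, Dnajb1 and Hsp90aa1) the median difference was 0.03, with 3 above 0 and 2 below, and among 9 constitutive genes (Hspa8, Hsp90ab1, Hspa4, Hspa9, Hspd1, Hspe1, Dnaja2, Dnajc5 and Dnajc7) it was 0.02, with 5 above and 4 below. None of the 14 passed the test, and both medians were below 0 with arrays centred on their median (-0.011 and -0.012). With the slide as a block they were -0.015 and 0.02. The spread within groups was 0.131 for the inducible and 0.0856 for the constitutive genes (median SD). On control 15 the inducible genes averaged 0.14 above their own means over the 6 arrays, the highest of the arrays, where the other 5 arrays ran from -0.08 to 0.04 and the constitutive genes from -0.04 to 0.05. Control 15 stood apart in other lists too. Glucocorticoid-regulated genes averaged 0.54 above their means there (5 of 6 highest), against -0.24 to -0.0074 on the other arrays. Vessel markers averaged -0.24 there (4 of 9 lowest, 1 highest), against -0.017 to 0.092 on the other arrays. Control 15 was also lowest for activity-regulated genes (-0.26, 5 of 8 lowest), but knockout 53 lay at 0.32 and knockout 48 at -0.20. For ependymal and choroid plexus markers it was lowest too (-0.54, 2 of 6 lowest), with control 62 at 0.54 and knockout 48 at -0.37. The part of these lists in the shift of the inducible genes was not tested. On knockout 48 the inducible genes parted: Hsph1 and Hsp90aa1 were at their highest there, Hspb1 and Hspa1a at their lowest.

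**Figure D4:**
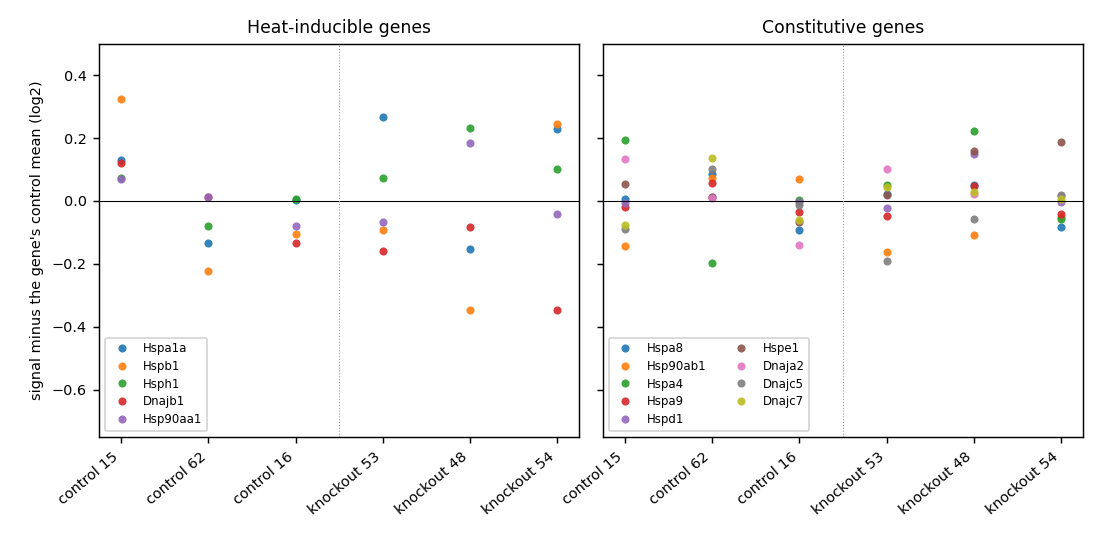
Signal of the 5 heat-inducible and 9 constitutive genes on each array (vertical axis, log2, minus the gene's control mean). The points scatter around 0 in both groups, and the inducible genes spread more widely, with all 5 above 0 on control 15 and no common shift on the knockouts.

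The rest of the pathway was read from a list of 54 cofactors, regulators and other chaperones, of which 52 were tested. At an adjusted p under 0.05 there were 0 calls, and without adjustment 3 were higher (5.77%, against 3.89% of all genes) and 0 lower (against 4.38%), with a median difference of 0.01. Hsf1, the heat shock regulator, read 3.25, 3.23 and 3.21 on the controls and 3.83, 3.57 and 3.43 on the knockouts, higher by 0.39 (unadjusted p = 0.013, adjusted p = 0.467 in limma). That held for its brightest probe, while its 2 dimmer ones gave -0.02 and 0.05.

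St13 (Hip), which keeps Hsp70 bound to its client, was higher by 0.33 without overlap (1.89 to 2.04 on controls, 2.20 to 2.51 on knockouts, adjusted p = 0.518 in limma). Its other 2 probes gave 0.25 and 0.29, also with separate groups. Cct6a, a subunit of the cytosolic chaperonin, was higher by 0.27 (adjusted p = 0.613 in limma), Calr, which folds glycoproteins, by 0.23, and Stip1 (Hop), which links Hsp70 to Hsp90, by 0.17. The dimmer Calr probe gave 0.35 with separate groups (adjusted p = 0.280 in limma), while the groups overlapped in the brighter one. Bag2, an inhibitor of client ubiquitination, was lower, at -0.23. Hsf2 and Cryaa were not tested.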

How the data were processed

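Cy3-labelled cRNA of 6 cortex samples was measured on 1-colour Agilent arrays, per the labels. Agilent Feature Extraction 9.1.3.1 read the spots, per the file headers, and the deposited processed signal is an intensity, background-subtracted within each array. The mean and background signals are deposited intensity values too. The authors also deposited a normalized log2 table, whose columns have equal medians (6.75). Equal medians alone do not show which normalization was used. The array annotation's genome build was not given in the sources used here. Control spots and outlier flags were left out, and spots of a probe averaged. Levels are log2 of the processed signal minus the array's 75th percentile. Probes well above background on all 3 arrays of a group (25505) were tested with limma (lmFit, eBayes; version 3.58.1, R 4.3.3), two-sided, with Benjamini-Hochberg adjustment over them all at 0.05. This filter uses the groups. The code was tested on simulated data. The arrays lay on 2 slides, controls 15 with knockouts 48 and 54, and controls 62 and 16 with knockout 53. Gene symbols and promoters are RefSeq's (GRCm38.p6). Named genes are the 3 markers, the inducible and constitutive lists, genes of lowest p in each family or compartment, and the largest rises and falls. They also include members never above background and up to 6 other pathway genes. Members with probes of opposite sign are included where at least 1 of the probes had an unadjusted p under 0.05 in limma. Genes and lists were chosen with earlier results of these data known. A few others are named because their values were seen. Figures used matplotlib 3.10.9.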

Additional observations from a re-analysis of the deposited data

How the results depend on the processing

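No chaperone gene passed the threshold in any of 17 tested alternatives, which changed scaling, background correction, filter, variance model, slide block, deposited values and arrays. The same count, 0, came from the genes chosen by updated symbol. Over the whole array 33 probes passed, but 0 with normexp and the 75th percentile, 3 and 2 with the filter at 1 array or none, 15 with slide as a block, and 2 to 62 with single arrays left out: 2 without control 15, 2 without control 16, 62 without knockout 53 and 13 without knockout 54. Medians near 0 have no stable sign. Without scaling between arrays, where the median of all genes moved to 0.17, the medians were 0.19 for all chaperone genes, 0.20 for inducible and 0.20 for constitutive genes. Centring on the median gave -0.017 for all chaperone genes, and normexp with the 75th percentile gave -0.015 for all and -0.030 for constitutive genes. Within slide 1 the inducible genes had a median of -0.093, and 0.07 within slide 2. With single arrays left out the medians ran from -0.022 to 0.036 for all, from -0.01 to 0.10 for inducible and from -0.025 to 0.040 for constitutive genes. Of 42 named members, 28 changed sign in some alternative and 14 did not. The cause was not tested. No paired analysis was possible because the sample numbers are not shared between the groups. Chaperone genes near the array's background (Hspb6, Hspb9) and those not above it are limited by signal.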
